A study of Homo sapiens with 6 samples.

Results

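Messenger RNA of 44 genes of homologous recombination, the Fanconi anaemia pathway and the replication checkpoint was measured in 12Z cells with and without myrrh extract. The genes were taken by symbol from a fixed list, which was chosen with earlier results of these data known. Each of the 44 had 1 row among the 60419 rows of the count table. The 12Z line is an immortalised human endometriotic line, labelled wild type, and all libraries came from this 1 line grown with 10% charcoal-stripped serum. One group received myrrh extract, a preparation of a plant resin diluted in DMSO, for 12 h at 100 µg/mL, and the other received DMSO as the vehicle, with 3 libraries in each. The comparison asks which of these genes respond to the extract. Nothing in the labels says whether each library came from its own culture. The p-values therefore measure only how far these libraries vary, and that variation may be technical.

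Homologous recombination repairs broken DNA by copying a sister chromatid. The MRE11-RAD50-NBN complex senses the break and starts to trim it, nucleases extend the single strand, and BRCA1, PALB2 and BRCA2 prepare it to pair with the sister. The Fanconi anaemia pathway unhooks crosslinks between DNA strands: a core complex with the ubiquitin ligase FANCL and the conjugating enzyme UBE2T modifies FANCD2 and FANCI, and repair then draws on recombination. The kinases ATR and CHEK1 watch over stalled forks and ATM and CHEK2 over breaks. Most of these genes are known to be expressed mainly in cycling cells, in S and G2 phase, and many are controlled by E2F factors.

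Libraries held 22454783 to 27588151 estimated counts, and a member gene held between 160 (FANCE) and 5452 (FANCI) counts in a library. Mitochondrial transcripts took 14.03% to 14.7% of counts in DMSO and 6.84% to 8.45% in Myrrh. Of the labels' cell type, the keratins KRT8 (1010 ± 28 CPM in DMSO, SD, n = 3) and KRT18 (627 ± 13.2) were high. Of the other listed keratins, KRT19 was at 137 ± 8.08 CPM and KRT7 at only 2.18 ± 0.222. The epithelial adhesion genes CDH1 (0.176 ± 0.0584) and EPCAM (1.04 ± 0.0862) were near 0. The stromal genes COL1A1 and VIM stood at 5725 ± 164 and 2709 ± 26.1 CPM. The leukocyte marker CD3E and the endothelial marker CDH5 had no counts in any library. The summed stromal list was 10575 to 10810 CPM in DMSO and 3092 to 3262 in Myrrh, with none of its 6 genes at 0, and all 6 fell. The summed epithelial list was 1743 to 1832 and 1221 to 1350 CPM (6 genes, 2 rose and 3 fell of 5 tested), and the 5 leukocyte genes summed to 34.1 to 34.8 and 51.3 to 63.8 (1 rose and 2 fell of 3 tested). Of these, CD68 went from 31.6 to 56.5 CPM, while PTPRC (-2.88 ± 0.61) and CD14 (-2.28 ± 0.27) fell. The part of these markers in the results was not tested. CPM are counts scaled to library size with TMM factors, which are set from genes left after extreme ratios are trimmed. In such bulk libraries, fewer cells of a type and less RNA per cell cannot be told apart.

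The 44 genes moved both ways, as did all genes tested. Of the 44 genes, 17 rose and 21 fell in Myrrh at an adjusted p of 0.05, and 6 were not called (edgeR's quasi-likelihood test, Benjamini-Hochberg over 16395 genes tested). All 44 had passed the filter on low counts. The share called among all genes tested was 78.4%, with 39.3% higher and 39.1% lower, so 38 of 44 is near a background in which most genes changed. The DMSO and Myrrh libraries did not overlap in CPM for 38 of the 44 genes, against 80.3% of all genes tested. By size, 4 of 44 (9.09%) changed by at least 2-fold, all lower (FANCL, FANCA, DNA2 and EME1), where 29.4% of all genes tested did so, 11.3% higher and 18% lower. Among the 9810 genes with a mean CPM in the members' range, 84.1% were called and 20.8% by at least 2-fold. The median log2 fold change was -0.11 over the members and -0.02 over all genes tested, and the median absolute value 0.50 and 0.61. Scaling by library totals in place of TMM factors moved the median of all genes by -0.14 on the log2 scale; 14 members were then higher and 26 lower, and 7 were lower by at least 2-fold, as were 7 when only genes at 5 CPM or more in 3 libraries were kept. Whether the members differ from other genes in the size of change was not tested. Tested against a log2 fold change of 0.5 with edgeR's glmTreat, a test chosen after seeing the data, 17 members were called, 5 higher and 12 lower, against 45.6% of all genes tested.

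**Figure D1:**
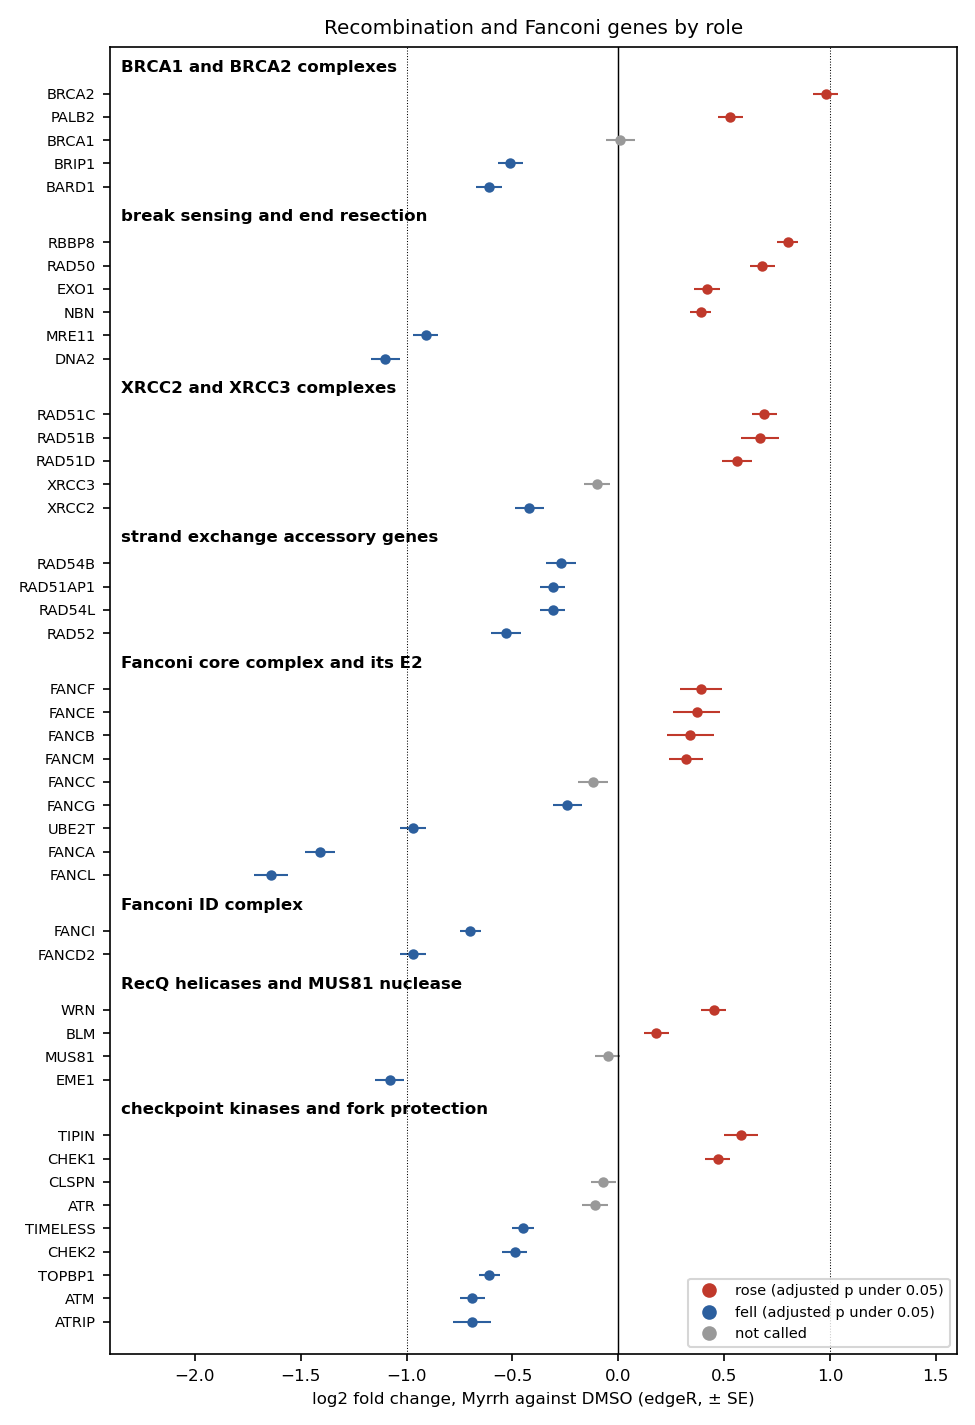
Log2 fold change of each of the 44 genes, Myrrh against DMSO, with its standard error from edgeR, grouped by role; dotted lines mark a 2-fold change, red genes rose, blue genes fell and grey genes were not called. Rises reach 0.98 (BRCA2) and falls reach -1.64 (FANCL), and most role groups hold members on each side of 0.

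The summed level of the 44 genes was 2049 to 2085 CPM with DMSO and 1719 to 1812 CPM with Myrrh. Role groups differed in their sums. The 9 genes of the Fanconi core complex and its E2 enzyme went from 314 to 318 CPM in DMSO to 189 to 198 in Myrrh, and FANCD2 with FANCI from 254 to 260 to 149 to 155. The 6 genes of break sensing and resection went the other way, from 279 to 289 to 319 to 334, as did the sum of RAD51B, RAD51C, RAD51D, XRCC2 and XRCC3, from 135 to 145 to 155 to 164.

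**Figure D2:**
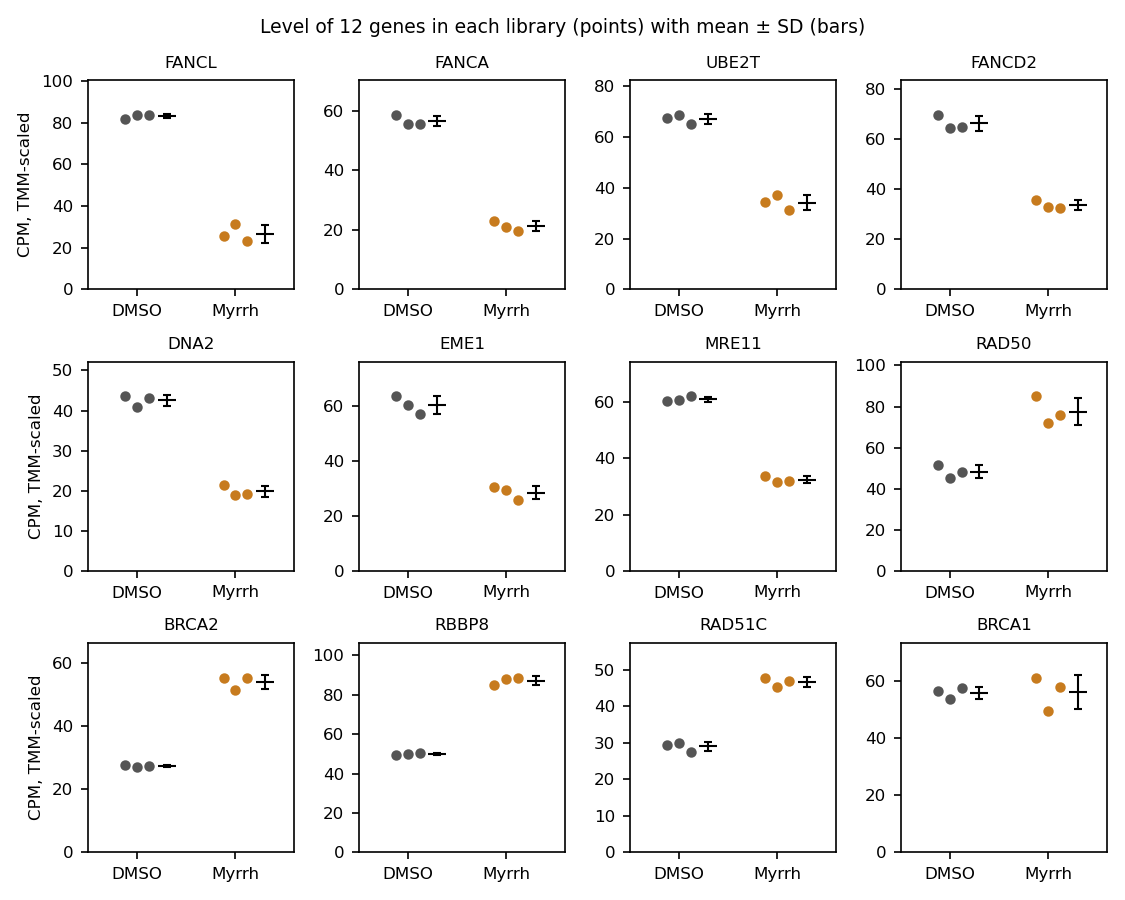
CPM of 12 genes in each of the 3 DMSO and 3 Myrrh libraries (points), with the mean and SD of each group beside them (bars). The groups stand apart for every gene shown except BRCA1, whose 3 Myrrh libraries (49.3 to 61.0 CPM) span the DMSO libraries.

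FANCL and FANCA, both of the Fanconi core complex, fell furthest among the members. DNA2 (-1.10 ± 0.07) and EME1 (-1.08 ± 0.07), of other roles, came next. FANCL, the catalytic ligase subunit, stood at 81.9, 83.6 and 83.6 CPM with DMSO and at 25.6, 31.1 and 23.0 CPM with Myrrh. Every Myrrh library was thus far below every DMSO library, a log2 fold change of -1.64 ± 0.08 (SE, edgeR adjusted p 9.7e-13). FANCA, a scaffold subunit of the core complex, went from 58.5, 55.5 and 55.6 CPM to 23.1, 21.1 and 19.7 (-1.41 ± 0.07, edgeR adjusted p 1.45e-16). UBE2T, the conjugating enzyme that works with FANCL, went from 67.2, 68.6 and 64.9 CPM to 34.2, 37.0 and 31.0 (-0.97 ± 0.06). These 3 genes fell without overlap between groups, where 80.3% of all genes tested did not overlap. FANCG, another core subunit, fell by 0.24 ± 0.07 on the log2 scale.

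Other core subunits did not follow. FANCF, an adaptor within the complex, rose from 10.2, 8.85 and 9.73 CPM to 13.0, 13.4 and 11.5 (0.39 ± 0.10). FANCE (0.37 ± 0.11), FANCB (0.34 ± 0.11) and the DNA translocase FANCM (0.32 ± 0.08) also rose, all from low levels, and FANCC was not called (-0.12 ± 0.07). With library totals, FANCB (adjusted p 0.0981) and FANCE (0.0544) were no longer called by edgeR, and on the authors' log2(TPM + 1) values FANCM was not (limma adjusted p 0.523). Within the 9 genes, 4 rose, 4 fell and 1 was not called, where 39.3% of all genes tested rose and 39.1% fell.

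The substrates of the ligase fell together. FANCD2 went from 69.6, 64.6 and 64.6 CPM to 35.8, 32.8 and 32.6 (-0.97 ± 0.06), and its partner FANCI from 190, 189 and 193 CPM to 119, 117 and 116 (-0.70 ± 0.05). No Myrrh library reached the DMSO range for FANCD2 or FANCI, and 80.3% of all genes tested had groups without overlap. For FANCD2 the fall in the ratio of mean TPM was smaller, -0.49 on the log2 scale. TPM, which divides reads by transcript length, also depends on which transcripts of a gene the reads are assigned to.

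In GRCh38 with GENCODE release 29, FANCL lies on chromosome 2 at 58159243 to 58241372 on the minus strand, with 14 exons in its longest coding transcript. FANCA lies on chromosome 16 at 89737549 to 89816657, also on the minus strand, with 43 exons. Of FANCL's exonic bases, 18.7% overlap exons of VRK2 on the opposite strand, and VRK2 rose by 1.45 ± 0.06. Of FANCA's, 23.6% overlap ZNF276, which fell by 0.77 ± 0.08. Whether reads were counted by strand is not stated in the labels or notes, so reads in these overlaps could belong to either gene.

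The 250 bases before the gene start of the genes at the ends of the range, FANCL, FANCA and BRCA2, are printed here from RefSeq on GRCh38.p14, because members that moved apart can be compared there letter by letter. Capitals mark 3 motifs searched on both strands: E2F letters (TTTCGCGC, TTTGGCGC, TTTCCCGC or TTTGCCGC), CHR letters (TTTGAA or TTCGAA) and the NF-Y box CCAAT. None of these strings lies within another.
FANCL (chr2:58241326-58241575, minus strand): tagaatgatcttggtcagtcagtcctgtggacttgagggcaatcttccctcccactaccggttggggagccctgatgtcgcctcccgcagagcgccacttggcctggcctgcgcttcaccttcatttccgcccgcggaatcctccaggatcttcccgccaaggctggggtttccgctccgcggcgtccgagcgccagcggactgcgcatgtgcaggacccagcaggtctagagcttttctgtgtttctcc
FANCA (chr16:89816648-89816897, minus strand): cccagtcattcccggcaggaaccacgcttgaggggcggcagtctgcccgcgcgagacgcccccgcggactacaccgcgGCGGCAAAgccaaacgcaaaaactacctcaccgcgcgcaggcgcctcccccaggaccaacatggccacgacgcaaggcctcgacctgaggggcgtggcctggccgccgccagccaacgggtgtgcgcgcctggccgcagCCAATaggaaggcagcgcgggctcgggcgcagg
BRCA2 (chr13:32315258-32315507, plus strand): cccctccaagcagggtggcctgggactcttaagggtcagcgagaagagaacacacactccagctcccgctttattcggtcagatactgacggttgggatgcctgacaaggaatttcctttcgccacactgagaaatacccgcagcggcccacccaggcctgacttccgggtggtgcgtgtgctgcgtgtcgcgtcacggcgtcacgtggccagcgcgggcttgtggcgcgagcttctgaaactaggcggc
FANCA held an E2F string and a CCAAT box, and neither FANCL nor BRCA2 held any of the strings in these bases. The search says only whether these letters are present, not whether a factor binds.

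Over the 39 members with an entry in the promoter table, windows of 300 bases (250 before and 50 after the start) held an E2F string in 7, or 17.9%, against 3.31% of all 35116 promoters in the table. CCAAT was in 19 of the 39 (48.7%), against 34.6% of all promoters, and CHR letters were in 4 (10.3%), against 16.4%. Each member was counted once, by the entry nearest its GENCODE start, while the share over all promoters counts every entry. The E2F strings of these 7 members are shown with their flanks, with the string in capitals, since this is the motif whose share differed most between the members and all promoters.
CLSPN (chr1:35769965-35769994, minus strand): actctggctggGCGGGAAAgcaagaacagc
EXO1 (chr1:241848197-241848226, plus strand): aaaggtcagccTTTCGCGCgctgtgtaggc
FANCA (chr16:89816801-89816830, minus strand): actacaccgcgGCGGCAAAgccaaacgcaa
FANCC (chr9:95317737-95317766, minus strand): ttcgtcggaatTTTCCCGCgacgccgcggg
FANCC (chr9:95317863-95317892, minus strand): ccggggcttccGCGCGAAAccgggaacact
FANCD2 (chr3:10026424-10026453, plus strand): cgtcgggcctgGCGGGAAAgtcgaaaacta
TOPBP1 (chr3:133661930-133661959, minus strand): ccgcgcggttgGCGCGAAAgtcggttcccg
XRCC2 (chr7:152676102-152676131, minus strand): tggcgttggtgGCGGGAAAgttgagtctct
Of these 7 members, FANCA, FANCD2, TOPBP1 and XRCC2 fell, EXO1 rose and CLSPN and FANCC were not called. By direction, 4 of 18 members that fell and 1 of 15 that rose held an E2F string, and 10 of 18 and 6 of 15 a CCAAT box. The starts are RefSeq's, and 28 of the 39 lie within 100 bases of the GENCODE gene start. FANCC, EXO1 and TOPBP1 are not among those 28, so their windows may belong to another start.

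BRCA2 and PALB2 rose, BARD1 and BRIP1 fell and BRCA1 was not called. BRCA2, a mediator of strand exchange, went from 27.5, 27.0 and 27.4 CPM to 55.2, 51.4 and 55.0, the highest rise among the members (0.98 ± 0.06, edgeR adjusted p 4.09e-14). PALB2, which joins BRCA2 to BRCA1, rose by 0.53 ± 0.06. BARD1, the obligate partner of BRCA1 in its ubiquitin ligase, went from 43.2, 42.4 and 41.7 CPM to 27.7, 26.8 and 28.8 (-0.61 ± 0.06), and BRIP1, a helicase bound by BRCA1, fell by 0.51 ± 0.06. The calls of BARD1 and BRIP1 were lost on the authors' log2(TPM + 1) values (limma adjusted p 0.372 and 0.0571). BRCA1 itself stood at 56.4, 53.4 and 57.4 CPM in DMSO and 61.0, 49.3 and 57.7 in Myrrh, with a log2 fold change of 0.01 ± 0.07. In GRCh38, BRCA2 lies on chromosome 13 at 32315474 to 32400266 with 27 exons in its longest coding transcript.

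In the break-sensing complex, the nuclease moved against its partners. MRE11, the nuclease, went from 60.2, 60.6 and 61.9 CPM to 33.8, 31.4 and 31.9 (-0.91 ± 0.06, edgeR adjusted p 9.79e-14). RAD50, the ATPase that bridges DNA ends, rose from 51.5, 45.2 and 48.3 to 84.9, 71.97 and 75.7 CPM (0.68 ± 0.06), and NBN, which recruits ATM, from 49.2, 50.1 and 51.2 to 66.6, 64.0 and 66.8 (0.39 ± 0.05). For each of the 3 subunits the groups did not overlap, as was so for 80.3% of all genes tested. The fall of MRE11 was -0.43 as a ratio of mean TPM. Of RAD50's exonic bases, 79.7% are shared with the overlapping same-strand gene model AC116366.3, to which 15.7 ± 3.63 CPM were assigned in DMSO and 23.9 ± 5.55 in Myrrh.

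The nucleases and cofactors that carry resection further were split as well. RBBP8, or CtIP, which activates MRE11, rose from 49.5, 50.2 and 50.4 CPM to 84.8, 88.2 and 88.5 (0.80 ± 0.05), and the exonuclease EXO1 rose by 0.42 ± 0.06. DNA2, a nuclease and helicase of long-range resection, went from 43.5, 40.9 and 43.1 CPM to 21.4, 19.0 and 19.2 (-1.10 ± 0.07). RBBP8 and EXO1 thus rose where DNA2 fell, and all 3 had groups without overlap, as did 80.3% of all genes tested. Of the 6 genes of this role, 4 rose and 2 fell, where 39.3% of all genes tested rose and 39.1% fell.

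Of RAD51B, RAD51C, RAD51D, XRCC2 and XRCC3, whose proteins form complexes that assist recombination, 3 of 5 rose and 1 fell. Among all genes tested, 39.3% rose and 39.1% fell. RAD51C, a subunit of each complex, rose from 29.4, 29.98 and 27.6 CPM to 47.7, 45.2 and 46.8 (0.69 ± 0.06). RAD51B rose from 8.17, 8.05 and 8.04 to 12.5, 12.6 and 13.5 CPM (0.67 ± 0.09), and RAD51D rose by 0.56 ± 0.07. RAD51D was higher by 1.22 as a log2 ratio of mean TPM. XRCC2 fell from 32.6, 33.8 and 31.7 to 26.5, 22.4 and 24.3 CPM (-0.42 ± 0.07), and XRCC3 was not called (-0.10 ± 0.06). XRCC3 was called lower in 5 other settings: with library totals (-0.25), with the 5 CPM filter (-0.20), by limma on log2(TPM + 1) and log2(TPM + 0.1) values (-0.19 each) and without DMSO replicate 3 (-0.15, edgeR adjusted p 0.032). Of the exonic bases of XRCC3, 76.7% overlap KLC1 on the opposite strand, which had 111 ± 1.53 CPM in DMSO and 104 ± 3.39 in Myrrh.

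All 4 accessory genes of strand exchange fell, each by less than 2-fold, where 39.1% of all genes tested fell. RAD52, an annealing protein, went from 24.9, 23.3 and 23.1 CPM to 17.0, 16.8 and 15.5 (-0.53 ± 0.07). RAD54L, a motor protein that moves along DNA, fell by 0.31 ± 0.06, as did RAD51AP1, which stimulates strand pairing (-0.31 ± 0.06). RAD54B, a relative of RAD54L, stood at 27.1, 30.6 and 30.6 CPM in DMSO and 24.2, 23.8 and 25.5 in Myrrh (-0.27 ± 0.07), the shallowest fall of the 4. RAD54B shares 59.1% of its exonic bases with FSBP on the same strand, which rose by 0.50 ± 0.10, and 25.1% of RAD54L overlaps LRRC41 on the opposite strand, which rose by 0.72 ± 0.06.

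Of the helicases and the MUS81 nuclease, WRN, a RecQ helicase, rose from 37.0, 35.8 and 38.9 CPM to 48.7, 48.2 and 55.4 (0.45 ± 0.06). BLM, the RecQ helicase that dissolves recombination junctions, rose by 0.18 ± 0.06, a call lost with library totals (0.04), with only genes at 5 CPM or more in 3 libraries kept (0.08) and on log2(TPM + 1) values (0.15). EME1, the noncatalytic partner of MUS81, went from 63.6, 60.4 and 57.1 CPM to 30.4, 29.5 and 25.7 (-1.08 ± 0.07). MUS81, the nuclease subunit, stood at 40.2, 40.7 and 36.8 CPM in DMSO and 37.1, 36.8 and 39.8 in Myrrh, with overlapping groups (-0.05 ± 0.06). MUS81 was called lower with library totals (-0.19), with the 5 CPM filter (-0.15) and by limma on log2(TPM + 1) and log2(TPM + 0.1) values (-0.17 each). EME1 overlaps LRRC59 on the opposite strand over 16.4% of its exonic bases, and LRRC59 rose by 1.2 ± 0.06. MUS81 overlaps CFL1 over 13.9% of its own, and CFL1 was at 781 ± 12.1 CPM in DMSO and 580 ± 29.2 in Myrrh.

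In the checkpoint group, 2 of 9 genes rose, 5 fell and 2 were not called, where 39.3% of all genes tested rose and 39.1% fell. ATM, the kinase activated by breaks, fell from 96.3, 89.0 and 86.1 CPM to 61.4, 53.2 and 53.2 (-0.69 ± 0.06), and its target kinase CHEK2 fell by 0.49 ± 0.06. ATR, the kinase of stalled forks, was not called (-0.11 ± 0.06). ATRIP, which brings ATR to single-stranded DNA, fell from 15.9, 16.1 and 15.1 to 8.97, 9.5 and 10.8 CPM (-0.69 ± 0.09), with 27.9% of its exonic bases shared with TREX1. TOPBP1, the activator of ATR, fell by 0.61 ± 0.05. CHEK1, the kinase downstream of ATR, rose by 0.47 ± 0.06, and CLSPN, which links ATR to CHEK1, was not called (-0.07 ± 0.06). ATR was called lower with library totals (-0.25), with the 5 CPM filter (-0.20) and without Myrrh replicate 1 (-0.15, edgeR adjusted p 0.0368), and CLSPN with library totals (-0.21) and the 5 CPM filter (-0.17). A difference between ATM and ATR was not tested.

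TIMELESS and TIPIN, which form 1 complex at the replication fork, moved in opposite directions. TIMELESS fell from 106, 104 and 107 CPM to 76.97, 76.6 and 79.0 (-0.45 ± 0.05), and TIPIN rose from 13.8, 14.5 and 13.7 to 21.3, 20.3 and 21.0 (0.58 ± 0.08). The bases before their starts, from the same RefSeq table and with the same motifs in capitals, show that each of these opposite-moving genes holds a CCAAT box.
TIMELESS (chr12:56449427-56449676, minus strand): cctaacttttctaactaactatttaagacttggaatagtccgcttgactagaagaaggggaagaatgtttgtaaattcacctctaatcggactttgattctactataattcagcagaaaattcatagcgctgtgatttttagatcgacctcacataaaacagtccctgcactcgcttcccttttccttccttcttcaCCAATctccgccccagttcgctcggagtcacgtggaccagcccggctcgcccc
TIPIN (chr15:66386718-66386967, minus strand): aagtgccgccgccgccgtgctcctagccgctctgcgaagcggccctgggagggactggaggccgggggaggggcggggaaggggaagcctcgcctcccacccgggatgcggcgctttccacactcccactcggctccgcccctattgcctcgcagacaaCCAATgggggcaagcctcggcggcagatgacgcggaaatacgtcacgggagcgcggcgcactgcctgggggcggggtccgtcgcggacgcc
Neither holds an E2F or CHR string in these bases. TIMELESS lies on chromosome 12 at 56416373 to 56449403 and TIPIN on chromosome 15 at 66336206 to 66386746.

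The ratio of partner genes within a library does not depend on how libraries are scaled, and 11 pairs were compared this way. In 10 of the 11 pairs the DMSO and Myrrh ratios did not overlap, each with a two-sided exact permutation p of 0.1 (0.11 after Benjamini-Hochberg adjustment over the pairs). That p is the smallest that 3 against 3 can give, so no pair could pass 0.05. Among single genes tested, 80.3% did not overlap between groups, and how often ratios of unrelated genes separate was not examined. The 10 pairs thus do not show that partners are set apart from other genes. The log2 ratio of RAD50 to MRE11 went from -0.34 ± 0.10 (SD, n = 3) to 1.26 ± 0.07, a shift of 1.59, the largest among the pairs. The ratio of NBN to MRE11 shifted by 1.3 in counts and by 0.72 in TPM. TIMELESS to TIPIN went from 2.92 ± 0.06 to 1.89 ± 0.03 and EME1 to MUS81 from 0.62 ± 0.05 to -0.41 ± 0.19, each a shift of -1.03.

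Smaller shifts were found in the other pairs. RAD51C to XRCC3 shifted by 0.79, UBE2T to FANCL by 0.68, BRCA1 to BARD1 by 0.61 in counts and 0.31 in TPM, ATR to ATRIP by 0.58 and PALB2 to BRCA2 by -0.44. FANCD2 to FANCI shifted by -0.27 in counts but by 0.14 in TPM, so the direction of this ratio depends on the unit. RAD51B to RAD51D overlapped between groups, with a shift of 0.11 (exact permutation p 0.2) in counts and -0.47 in TPM.

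**Figure D3:**
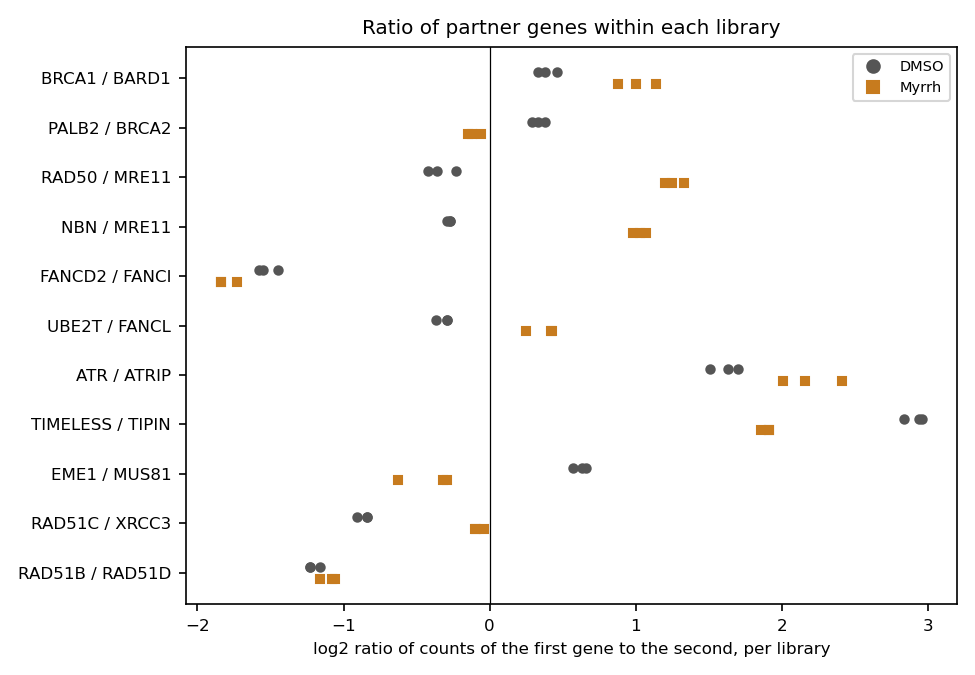
Log2 ratio of the estimated counts of the first gene to the second in each library, with DMSO libraries as circles and Myrrh libraries as squares. The RAD50 to MRE11 squares (1.2 to 1.33) lie furthest from their circles (-0.42 to -0.23), and RAD51B to RAD51D is the pair whose groups overlap.

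Per transcript length, on the authors' TPM, UBE2T was the highest member in DMSO (116 ± 1.88 TPM, SD, n = 3), followed by FANCL (89.2 ± 3.71) and FANCI (63.05 ± 2.52). EME1, FANCG, RAD51C, TOPBP1, RAD51AP1 and CHEK2 followed between 57.1 and 50.5, with neighbours that did not differ beyond their SD. The lowest were FANCF (3.95 ± 0.342), FANCE (3.84 ± 0.256) and FANCB (3.79 ± 0.639), again within their spread. In Myrrh the order changed at the top, where RAD51C (89.6 ± 5.45 TPM) came first, ahead of UBE2T (62.1 ± 4.20) and RBBP8 (51.8 ± 1.05). FANCL was then at 30.6 ± 4.96 TPM and eleventh in order. The log2 ratio of mean TPM lay within 0.3 of the count-based log2 fold change for 39 of the 44 genes. The others were RAD51D, MRE11, FANCD2, BARD1 and FANCB.

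Gene size and level were set beside the direction of change. Across the 44 genes, the log2 fold change correlated with the log10 gene span at a Pearson r of 0.11 (Spearman rho 0.07), with log10 transcript length at 0.15 (0.04), with the number of exons at -0.24 (-0.18) and with log2 mean CPM at -0.27 (-0.16). Genes are not independent replicates, and all values come from the same 6 libraries. RAD51B, the widest member at 910.4 kb, rose and FANCF, the shortest at 3.0 kb with 1 exon, rose too.

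Other repair genes, from lists of pathway members that are not among the 44, were also split. Of 72 such genes, 34 rose and 25 fell, 81.9% called against 78.4% of all genes tested. By at least 2-fold, 2 rose and 2 fell (5.56% against 29.4%). Among genes with a mean CPM in the members' range, that share was 20.8%. Of all genes tested, 39.3% rose and 39.1% fell, the background for each list named below. In the list of the single-strand binding protein RPA and the 9-1-1 clamp, 4 of 9 rose and 4 fell: HUS1, a clamp subunit, rose from 9.78 ± 0.0757 to 27.0 ± 1.54 CPM (1.47 ± 0.08) and RPA2 by 0.72 ± 0.05, while ETAA1, a further activator of ATR, fell by 0.99 ± 0.07 and RPA1 by 0.34 ± 0.05. Of 15 other Fanconi and crosslink repair genes, 8 rose and 4 fell, with the nuclease ERCC4 at 0.93 ± 0.07 and MAD2L2 at 0.45 ± 0.05 against the nuclease scaffold SLX4 at -1.09 ± 0.09 and CENPX at -0.81 ± 0.07. Of 11 genes of junction dissolution, 4 rose and 5 fell. RMI2, which works with BLM, was at -1.2 ± 0.06 and the resolvase GEN1 at -0.63 ± 0.06, and the topoisomerase TOP3A was at 0.67 ± 0.06 and HROB at 0.43 ± 0.08.

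Chromatin signalling at breaks rose in 9 of 15 genes and fell in 4. SHLD1, of the shieldin complex that limits resection, rose most (1.54 ± 0.17), from a low level of 1.70 ± 0.0982 CPM in DMSO. The ubiquitin ligase RNF8 followed (0.90 ± 0.07), and the histone H2AX (-0.57 ± 0.06) and the deubiquitinase BRCC3 (-0.38 ± 0.07) were lowest. Of 8 other regulators of strand exchange, 3 rose and 3 fell. Among them SWI5 (0.86 ± 0.06) and SFR1 (0.75 ± 0.11), which form a complex, both rose, and SWSAP1 (-0.73 ± 0.29) and PARPBP (-0.49 ± 0.07) fell. SWSAP1 held only 12 to 39 counts in a library. End joining, the repair route that needs no template, rose in 6 of 14 genes and fell in 5. XRCC4 (0.89 ± 0.08) and NHEJ1 (0.70 ± 0.09), which act with the ligase, were the highest, and PAXX (-0.52 ± 0.06) and the polymerase POLM (-0.45 ± 0.07) the lowest.

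Transcription regulators and cell cycle markers moved beside the members. Of 22 genes of the E2F, DREAM and CDK12 list, 11 rose and 6 fell. E2F7, an inhibitory E2F, rose by 1.67 ± 0.05 and E2F6 by 0.83 ± 0.07, while its relative E2F8 fell by 2.51 ± 0.12 and E2F2 by 1.0 ± 0.09. Of 20 S phase markers, 4 rose and 13 fell, from CDC6 (1.81 ± 0.05) and SLBP (0.39 ± 0.06) to PCNA (-1.59 ± 0.06) and CCNE2 (-1.65 ± 0.08), and their summed level was 2605 to 2703 CPM in DMSO and 1990 to 2109 in Myrrh. Of 14 markers of G2 and mitosis, 13 fell and 1 rose, with KIF20A at -2.12 ± 0.06 and MKI67 at -1.65 ± 0.06, against CDC20 at 0.32 ± 0.06. The summed level of that list was 2695 to 2774 CPM in DMSO and 1277 to 1429 in Myrrh, and 8 of its genes fell by at least 2-fold. The part of the cell cycle in the members' changes was not tested. When libraries were scaled by their totals alone, 37 of the 128 genes of all these lists were higher and 66 lower, against 50 and 57.

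**Figure D4:**
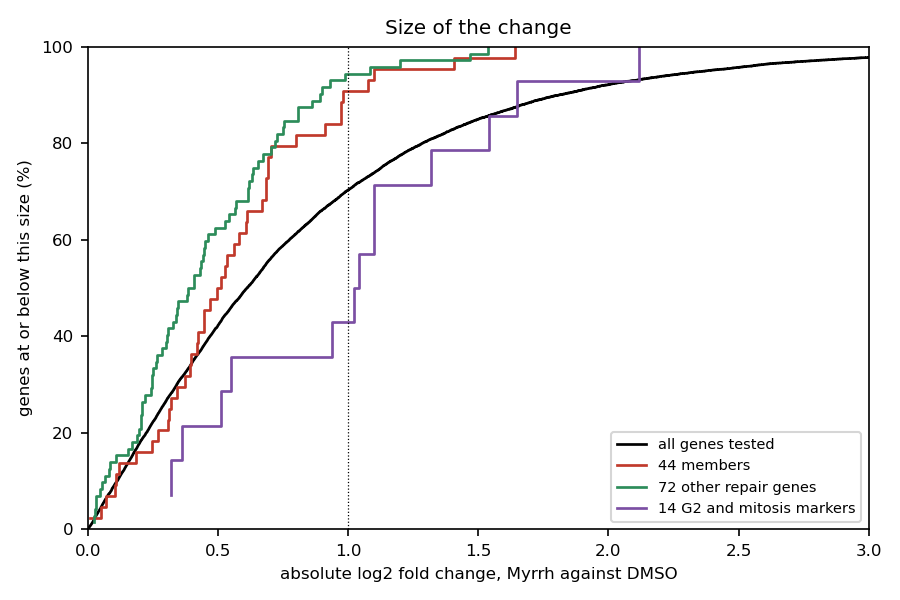
Cumulative share of genes (%) by absolute log2 fold change, Myrrh against DMSO, for all genes tested, the 44 members, 72 other repair genes and 14 markers of G2 and mitosis; the dotted line marks a 2-fold change. At that line the members and the other repair genes lie above all genes tested, with 9.09% and 5.56% of them past it against 29.4%, and the mitotic markers lie below, with 57.1% past it. Among genes with a mean CPM in the members' range, which are not drawn, 20.8% were called with at least a 2-fold change.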

How the data were processed

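RNA of 6 libraries was compared, 3 with DMSO and 3 with Myrrh, grouped from the sample titles; each was made from 1.5 µg of total RNA with a TruSeq kit, per the labels' protocols. The deposited estimated counts (STAR and RSEM 1.3.1, GRCh38, per the submitters' processing notes) are not scaled between libraries. RSEM splits reads between genes, so 11.1% to 12.2% of all 60419 rows per library, rows without counts included, are not whole. Of the 44 members, 20 hold such a count. The authors also deposited log2(TPM + 1) values. The annotation release and whether strand was used are not stated there.

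Counts were rounded, filtered with filterByExpr and scaled by TMM factors. Differences were tested by quasi-likelihood in edgeR (edgeR 4.0.16, R 4.3.3; two-sided, robust, no block), adjusted by Benjamini-Hochberg over all 16395 genes tested, with a threshold of 0.05. SE is the log2 fold change over the square root of F. Limma 3.58.1 and DESeq2 1.42.0 gave alternatives. Partner ratios used counts plus 0.5. The test was also run on simulated counts in which most genes did not change, unlike here, so that run says nothing about the scaling. Within groups, chi-square was 3.86 to 9.43 per degree of freedom, so no library was a copy of another. Members and lists were chosen with earlier results of these data known. Values per library are given for the called member with the highest and lowest log2 fold change of each role. The same holds for the 6 highest and 6 lowest called members, and for partners whose log2 ratio shifted by at least 1 without overlap. BRCA1 and ATM are shown in addition to this rule. Of other lists up to 2 called genes from each end are named. Promoters are RefSeq's, on GRCh38.p14.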

Additional observations from a re-analysis of the deposited data

How the results depend on the processing

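Under 14 other settings, 33 of the 44 genes kept their side of the threshold in all of them, and those called kept their direction; BRCA1, called in none, ranged from -0.13 to 0.09. The other 11 were ATR, BARD1, BLM, BRIP1, CLSPN, FANCB, FANCC, FANCE, FANCM, MUS81 and XRCC3. Members called numbered 36 to 42 over these settings. Those of at least 2-fold numbered 7 with library totals and 7 with a filter of 5 CPM in 3 libraries, against 4. ATR, CLSPN, FANCC, MUS81 and XRCC3 were called lower under these same settings (library totals: -0.25, -0.21, -0.26, -0.19 and -0.25). Leaving out each library in turn gave 38 to 39 members called, 3 to 6 of at least 2-fold, 12362 to 12893 of all genes and 100 to 106 of the other pathway genes. Tested with glmTreat against a log2 fold change of 0.5, chosen after seeing the data, 17 members were called (5 higher, 12 lower), 7483 of all genes (45.6%) and 50 of the other pathway genes. As ratios of TPM, 2 partner shifts reversed, FANCD2 to FANCI (0.14) and RAD51B to RAD51D (-0.47); the cause was not tested. With the replicate number as a block, 38 members, 12782 genes and 107 other pathway genes were called, against 38, 12854 and 107. Deviations of same-numbered libraries correlated at -0.06, -0.0045 and 0.036, and not every library correlated best with its own number. No pairing by number was seen, but these values cannot tell whether same-numbered libraries were handled together. Depth limits the members with few counts, among them FANCB, FANCE, FANCF and RAD51B, each with 160 to 309 in a library.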
